A study of Arabidopsis thaliana with 12 samples.

Results

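EXPA7 and EXPA18 are alpha-expansin genes of Arabidopsis thaliana. They were taken as the features annotated to 1 of these genes alone, with the feature of highest mean kept per gene. Each gene had 1 such feature, so the members were 2 of 16411 named genes on an array of 38408 features. The loci are AT1G12560 for EXPA7 and AT1G62980 for EXPA18. The series compared roots and shoots, collected separately on 12 one-colour arrays, from seedlings in which roots had been given estradiol or its solvent DMSO. All seedlings, the DMSO controls included, carried an estradiol-inducible CLE3 transgene, CLE3 being a small secreted signalling peptide. Plants without the transgene were not part of the comparison, so an effect of estradiol itself cannot be told apart from one of CLE3. Seedlings were 7 days old when roots were exposed, exposure lasted 24 h, and the dose is given as 5 mM in the labels. The titles give 4 groups of 3 arrays, each organ with DMSO and each organ with estradiol. One label field, the source name, gives estradiol for all root arrays and DMSO for all shoot arrays, and it was not used. Neither the promoter that drives the inducible system nor the number of seedlings pooled per array is stated in the labels. Nothing in the labels states that replicates were grown apart. The p-values therefore reflect only the spread between these arrays, which may be technical.

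Expansins are secreted proteins that loosen plant cell walls without breaking their polymers, and alpha-expansins form the largest family. Root hairs are tubular outgrowths of single epidermal cells that extend by growth at the tip, which requires local wall loosening. EXPA7 and EXPA18 are known for expression in the hair-forming cells of the root epidermis. Both act downstream of the bHLH factor RHD6, and their promoters hold a shared root hair element. A whole root contains many other cell types. In such bulk samples fewer hair cells and less RNA per hair cell cannot be told apart.

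Before the results, 2 arrays have to be set aside. The array titled root DMSO replicate 3 correlated across features with shoot arrays at a mean r of 0.981 and with roots at 0.874. The array titled shoot estradiol replicate 3 had a mean r of 0.986 to roots and 0.874 to shoots. The other 10 arrays had 0.985 to 0.988 with their own organ in roots and 0.979 to 0.981 in shoots, against 0.871 to 0.878 with the other organ. All 4 measured root markers were higher in roots on those 10 arrays and all 4 measured photosynthesis genes were higher in shoots, under DMSO and under estradiol. Of all features 19.3% were called higher in roots and 19.9% lower under DMSO, and 19.5% and 19.8% under estradiol. Results below are from these 10 arrays unless another set is named, and each comparison of EXPA7 and EXPA18 is also given with all 12 arrays in the groups of their titles and with the labels of these 2 arrays exchanged. The 2 arrays were set aside for their whole profile, of which the organ difference is the main part. Exchanging labels is a way to compute the comparison and not a mapping that any label gives. Both choices follow the organ profiles, so p-values for organ differences under either are not independent of them.

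EXPA7 was higher in roots than in shoots. Its log2 value was 6.51 and 6.47 in roots with DMSO and 6.67, 6.71 and 6.98 in roots with estradiol. In shoots it was 4.37, 4.46 and 4.004 with DMSO and 4.54 and 4.21 with estradiol. Every root array thus lay above every shoot array, with a gap of 1.93 between the lowest root and the highest shoot value. Such an order is common. Within DMSO 27.6% of all features had all root values above all shoot values, and within estradiol 28.5%. The share over both treatments together was not counted. The array titled shoot estradiol replicate 3 read 6.68, within the range of the roots. The array titled root DMSO replicate 3 read 4.95, which is above the highest shoot value of 4.54 and well below the lowest root value of 6.47.

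EXPA18 was also higher in roots, by a wider margin. It read 8.31 and 8.20 in roots with DMSO and 8.08, 8.08 and 8.40 in roots with estradiol. It read 3.91, 1.74 and 3.24 in shoots with DMSO, and 4.20 and 3.21 with estradiol. The 5 root values lay within 0.32 of each other, while the 5 shoot values spanned 2.46, mainly through shoot DMSO replicate 2. The shoot values scatter around the lower quartile of all features, 2.92 to 3.12 across arrays, and the table holds no detection call. The gap between the lowest root and the highest shoot value was 3.89, where the order itself is again common among all features. The array titled root DMSO replicate 3 read 3.68, inside the shoot range, and the array titled shoot estradiol replicate 3 read 7.90, just below the roots.

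**Figure D1:**
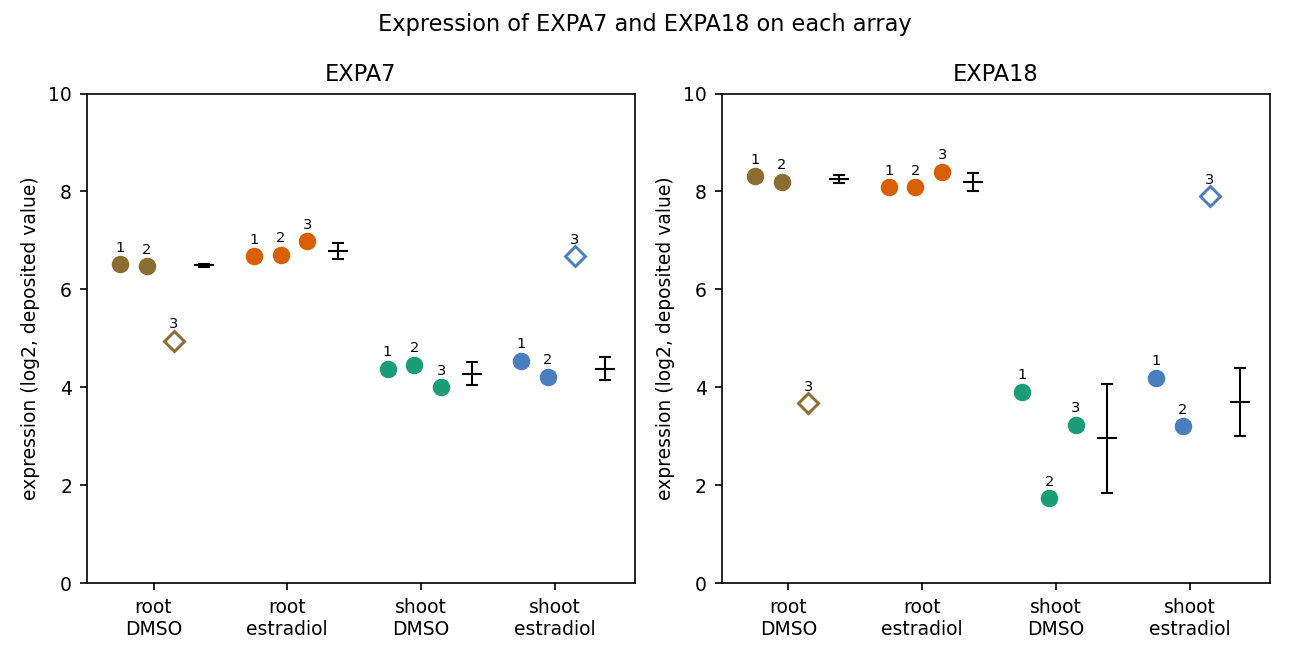
Log2 expression (vertical axis) of EXPA7 and EXPA18 on each of the 12 arrays by group as titled. Filled circles are the 10 arrays in the comparison, open diamonds the 2 arrays set aside, numbers are replicates, and bars give the mean and SD of the filled circles (n = 2 or 3). Root circles lie between 6.47 and 6.98 for EXPA7 and between 8.08 and 8.40 for EXPA18, above all shoot circles, and each diamond lies nearer to the other organ than to the one in its title.

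The first comparison asked how far roots and shoots differ in control seedlings. Under DMSO the EXPA7 mean was 6.49 ± 0.03 (SD, n = 2) in roots and 4.28 ± 0.24 (SD, n = 3) in shoots. The difference of 2.21 (SE 0.18) is 4.63-fold, with a 95% interval of 3.49 to 6.14-fold and a limma adjusted p of 1.34e-05. EXPA18 had 8.25 ± 0.08 (SD, n = 2) in roots and 2.96 ± 1.11 (SD, n = 3) in shoots. The difference was 5.29 (SE 0.55), with a 95% interval of 4.03 to 6.55 on the log2 scale and a limma adjusted p of 6.81e-05. No fold is given for EXPA18, because its shoot values scatter around the lower quartile and nothing in the table shows that they are above background. Its difference is one of deposited values, and how it relates to RNA amounts in shoots is not known. The EXPA7 shoot values of 4.004 to 4.54 lie above that quartile but below the array medians of 4.99 to 5.09. They have no detection call either, so the organ folds of EXPA7 are also those of deposited values. Both genes were thus called higher in roots. Over all 38408 features 7394, or 19.3%, were called higher in roots and 19.9% lower. By the size of the difference EXPA7 stood at rank 1492 among all features. With respect to overlap, 27.6% of features had both root DMSO values above all shoot DMSO values.

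The same comparison under estradiol gave differences of like size. EXPA7 had 6.79 ± 0.17 (SD, n = 3) in roots and 4.38 ± 0.23 (SD, n = 2) in shoots. The difference of 2.41 (SE 0.18) is 5.31-fold, with an interval of 4.005 to 7.05-fold and a limma adjusted p of 8.17e-06. EXPA18 had 8.19 ± 0.18 (SD, n = 3) in roots and 3.70 ± 0.70 (SD, n = 2) in shoots. The difference of deposited values was 4.49 (SE 0.55), with an interval of 3.23 to 5.75 on the log2 scale and a limma adjusted p of 0.000206. Here 19.5% of all features were called higher in roots and 19.8% lower, and 28.5% had all root values above all shoot values. By the size of the difference EXPA7 stood at rank 1212.

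These organ differences depended on how the 2 arrays were entered. With their labels exchanged, EXPA7 differed by 2.27 (SE 0.19) under DMSO and 2.22 (SE 0.19) under estradiol, and EXPA18 by 5.18 (SE 0.45) and 4.49 (SE 0.45), with limma adjusted p-values of at most 9.65e-06. Of all features 43.9% were called in each of these comparisons. With all 12 arrays as titled, EXPA7 differed by 1.70 (SE 0.60) under DMSO and 1.64 (SE 0.60) under estradiol. EXPA18 then differed by 3.77 (SE 1.38) and 3.09 (SE 1.38). None of these 4 differences as titled passed, with limma adjusted p-values of 0.273 under DMSO and 0.306 under estradiol, and 0 (0.0%) and 1 (0.0026%) of all features passed, with 6642 and 5701 at an unadjusted p under 0.05. The SD of EXPA18 in roots with DMSO was 2.64 (n = 3) as titled, against 0.08 (n = 2) without replicate 3 and 0.21 (n = 3) with the labels exchanged.

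Within roots, neither gene passed the test for an estradiol effect. EXPA7 was higher with estradiol by 0.30 (SE 0.18), 1.23-fold, with an interval of 0.925 to 1.63-fold and a limma adjusted p of 0.999. Its 3 estradiol values all lay above its 2 DMSO values. That order is common, since 9.65% of all features had estradiol values wholly above DMSO values in roots. With the labels exchanged the EXPA7 groups met, with DMSO values of 6.47 to 6.68 and estradiol values of 6.67 to 6.98, and the difference was 0.23 (SE 0.19). EXPA18 had a difference of -0.06 (SE 0.55), with an interval of -1.32 to 1.196 on the log2 scale and a limma adjusted p of 0.999. That SE is shared with the scattered shoot arrays. With the root arrays fitted alone it was 0.15 for EXPA18 and 0.14 for EXPA7, at limma adjusted p-values of 0.998 and 0.933. With the labels exchanged the EXPA18 difference was 0.05 (SE 0.45). As titled the differences in roots were 0.81 (SE 0.60) for EXPA7 and 1.46 (SE 1.38) for EXPA18, at a limma adjusted p of 0.900. In this comparison 1 of 38408 features, or 0.0026%, passed on the 10 arrays.

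In shoots, which had not been treated directly, the estradiol differences were 0.10 (SE 0.18) for EXPA7 and 0.74 (SE 0.55) for EXPA18. Their limma adjusted p-values were 0.943 and 0.798, and the values with estradiol and with DMSO overlapped for both genes. The EXPA18 value turned on single shoot arrays: it was 0.13 without shoot DMSO replicate 2, 0.25 without shoot estradiol replicate 1, 1.22 without shoot DMSO replicate 1 and 1.24 without shoot estradiol replicate 2. None of these passed, with limma adjusted p-values of 0.569 to 0.999. With the labels exchanged the shoot differences were 0.29 (SE 0.19) for EXPA7 and 0.73 (SE 0.45) for EXPA18, and as titled 0.86 (SE 0.60) and 2.14 (SE 1.38). Of all features 0 (0.0%) were called by limma in shoots, and 3125 had unadjusted p-values under 0.05. The estradiol effect in roots minus that in shoots was 0.20 (SE 0.25) for EXPA7 and -0.81 (SE 0.78) for EXPA18, each at a limma adjusted p of 1.00, where 0.0026% of all features passed. For EXPA18 it ran from -1.30 without shoot estradiol replicate 2 to -0.20 without shoot DMSO replicate 2. With all 12 arrays it was -0.05 for EXPA7 and -0.68 for EXPA18, both as titled and exchanged. The intervals of -0.38 to 0.78 and -2.59 to 0.97 give the sizes of difference between organs that these arrays could not resolve.

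**Figure D2:**
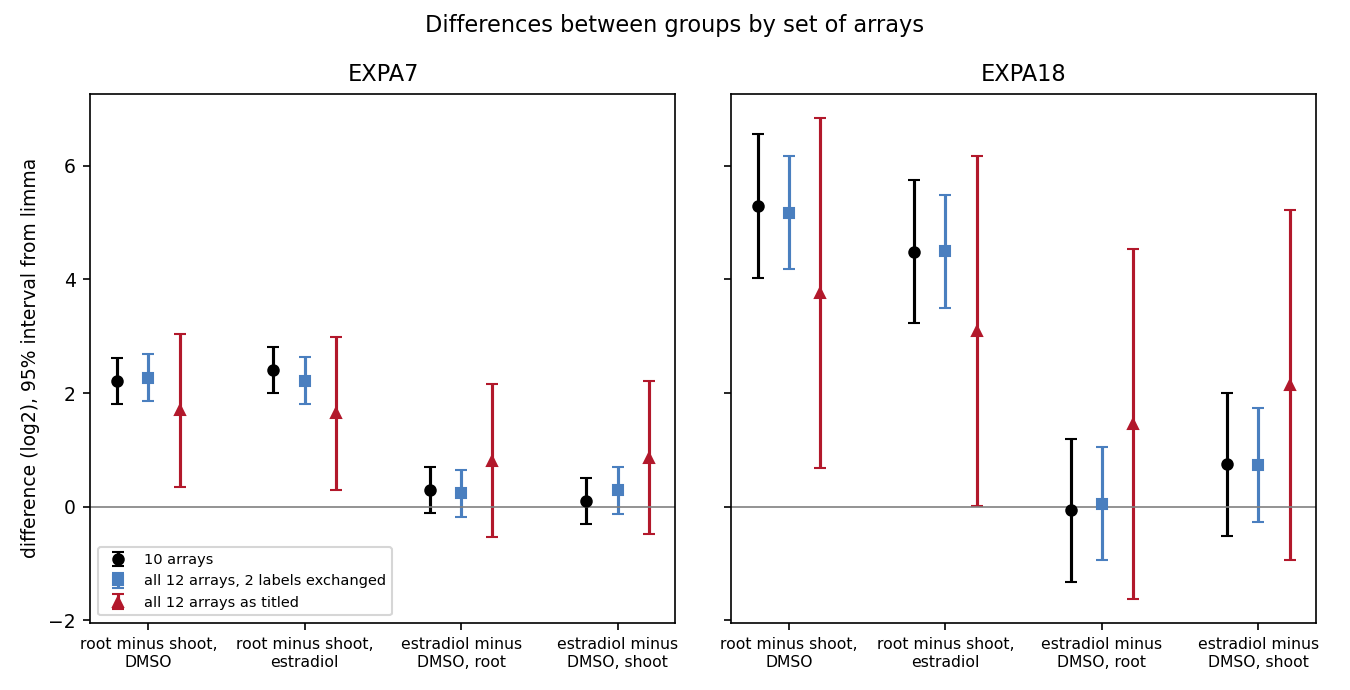
Differences in log2 expression (vertical axis) with 95% limma intervals for EXPA7 and EXPA18 in 4 comparisons, from 10 arrays (circles), 12 arrays with 2 labels exchanged (squares) and 12 arrays as titled (triangles). Organ differences on 10 arrays were 2.21 and 2.41 for EXPA7 and 5.29 and 4.49 for EXPA18, and the intervals as titled are wider throughout.

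In order of mean level, EXPA7 ran from roots with estradiol (6.79) through roots with DMSO (6.49) and shoots with estradiol (4.38) to shoots with DMSO (4.28). EXPA18 ran from roots with DMSO (8.25) through roots with estradiol (8.19) and shoots with estradiol (3.70) to shoots with DMSO (2.96). For both genes the neighbours within an organ did not differ past the threshold. The differences between organs within each treatment did.

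How the difference between the features varied was followed array by array. Within each array, EXPA18 minus EXPA7 was 1.80 and 1.72 in roots with DMSO and 1.41, 1.37 and 1.42 in roots with estradiol. In shoots it was -0.47, -2.73 and -0.77 with DMSO and -0.34 and -1.004 with estradiol. The sign of such a value has no meaning, since it sets the readings of different probes against each other, and only its change between organs is compared. All root values lay above all shoot values. The mean was 1.55 ± 0.20 (SD, n = 5) in roots and -1.06 ± 0.97 (SD, n = 5) in shoots. The difference of 2.61 had an exact two-sided permutation p of 0.00794, the smallest that 5 against 5 arrays allow. Both treatments were pooled per organ here, so each SD also holds any treatment difference. In roots on the 10 arrays the DMSO values all lay above the estradiol values. With the labels exchanged that order was lost, since the array titled shoot estradiol replicate 3 had 1.22. How many pairs of features show such an order was not counted, and the order was not tested. With the labels exchanged the difference between organs was 2.59 (exact permutation p 0.00216, n = 6 and 6), again the smallest possible. Both the choice of the 10 arrays and the exchange followed the organ profiles, so neither p-value is separate support for an organ difference. The permutations also ignore treatment and replicate number. As titled the difference was 1.76 (exact permutation p 0.0498, n = 6 and 6). The organ difference in deposited log2 values was unequal for the 2 features. How each feature responds to RNA amount near its lower end was not measured, and the EXPA18 shoot values lie there.

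**Figure D3:**
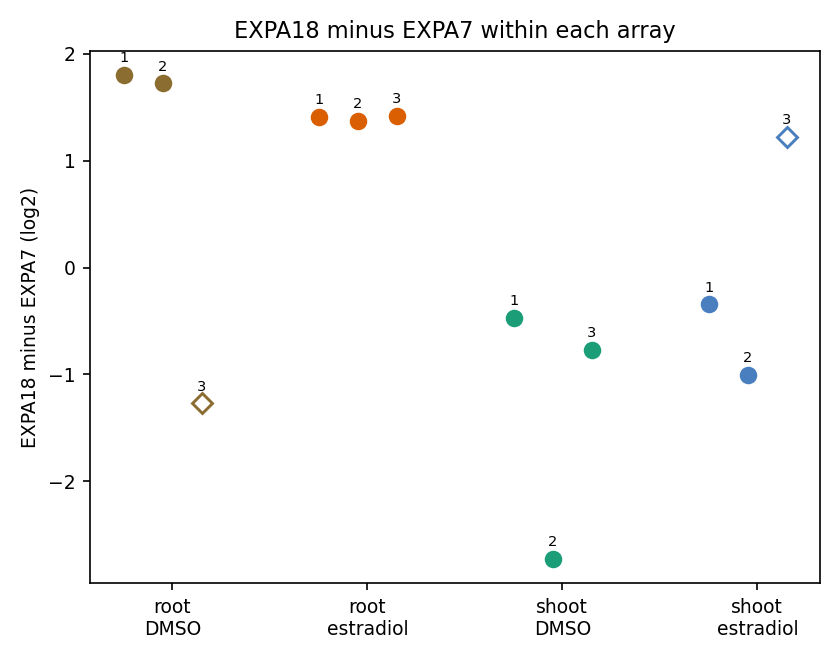
EXPA18 minus EXPA7 in log2 units (vertical axis) within each array by group as titled, with filled circles for the 10 arrays, open diamonds for the 2 set aside and numbers for replicates. Root circles lie between 1.37 and 1.80 and shoot circles between -2.73 and -0.34.

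Among the other alpha-expansins, 12 of 24 listed genes were measured, and under DMSO 3 passed as higher in roots, 3 as lower, and 6 did not pass. The same counts were found under estradiol. Across the 12 genes the median root minus shoot difference was -0.15 under DMSO, beside -0.09 over all features, and 39.2% of all features passed in either direction (39.3% under estradiol). EXPA9, EXPA4 and EXPA15 were the genes higher in roots, by 1.97 (SE 0.11), 1.95 (SE 0.20) and 1.66 (SE 0.31) under DMSO. Under estradiol the same 3 genes passed, at 2.03, 2.03 and 1.72. EXPA8, EXPA16 and EXPA24 were lower in roots, by differences of -3.58 (SE 0.20), -2.64 (SE 0.36) and -0.65 (SE 0.22). EXPA8 read 5.67 to 5.96 in roots and 8.82 to 9.39 in shoots, so its direction was opposite to that of the 2 root hair genes. The EXPA24 call was lost with the labels exchanged, where its difference was -0.54 under DMSO and its limma adjusted p 0.112. As titled, 0 of the 12 passed in either organ comparison by limma, as 0 and 1 of all features did. EXPA20, EXPA21, EXPA22, EXPA23, EXPA25 and EXP26 did not pass, with differences between -0.58 and 0.09 under DMSO. Expansins are similar in sequence, and how far such features share signal is not given in the sources used here.

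Of 10 listed genes of the other expansin families 9 were measured, and under DMSO 2 were higher in roots, 1 was lower and 6 did not pass, beside 19.3% and 19.9% of all features. The beta-expansins EXPB1 and EXPB3 were higher in roots by 1.36 (SE 0.31) and 1.22 (SE 0.22). EXLB1, an expansin-like gene, was lower by a difference of -0.63 (SE 0.17). Under estradiol the same 3 genes passed. With the labels exchanged EXPB1 and EXPB3 passed in both comparisons, EXLB1 passed under DMSO alone, and EXLA3 (1.13) and EXPB2 (-0.54) also passed under DMSO. For the estradiol effect in roots, 0 of 14 alpha-expansins and 0 of the 9 others passed in limma, beside 1 (0.0026%) of all 38408 features. With so few features called, these counts say nothing particular to expansins. EXPA25 had 0.49 (SE 0.17) in roots and 0.55 (SE 0.17) in shoots, at limma adjusted p-values of 0.999 and 0.448.

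**Figure D4:**
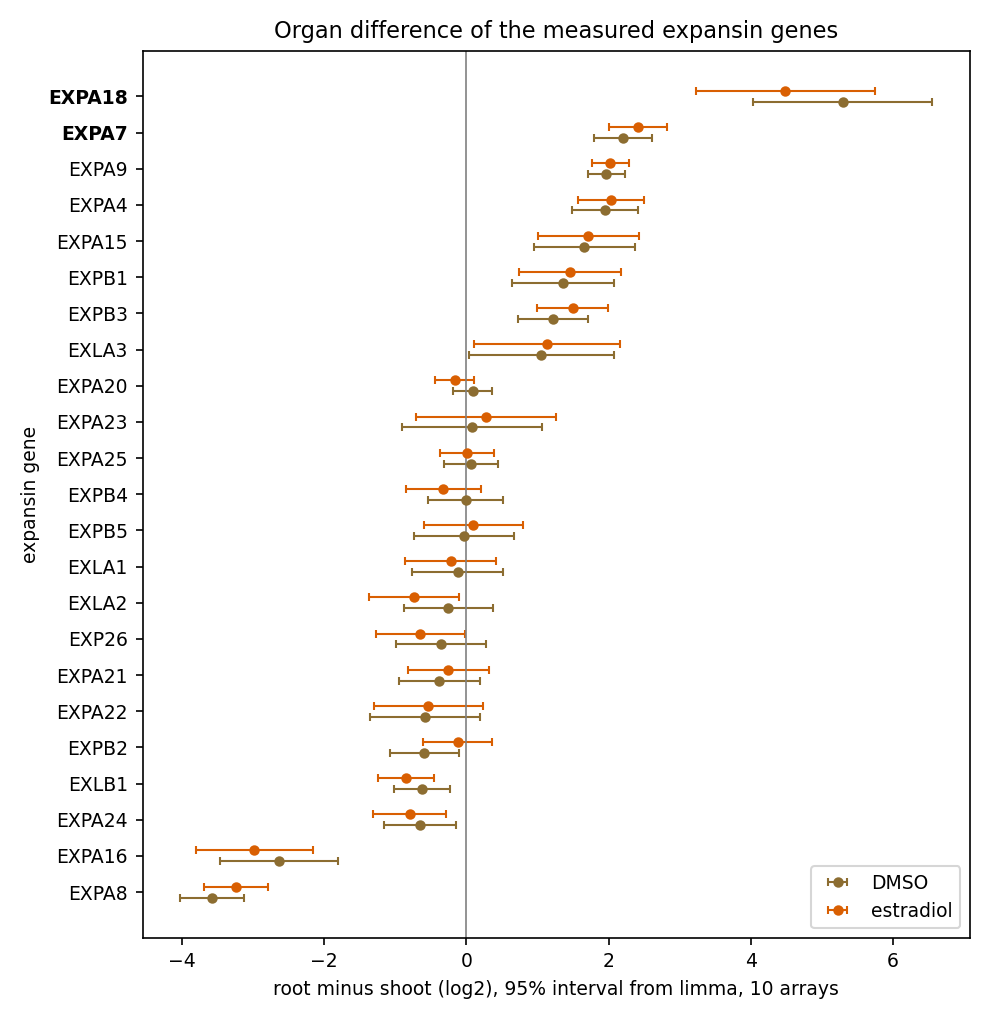
Root minus shoot difference in log2 expression (horizontal axis) with 95% limma intervals for the 23 measured expansin genes on 10 arrays, under DMSO and under estradiol. EXPA18 (5.29 and 4.49) and EXPA7 (2.21 and 2.41) stand at the top, and EXPA8 (-3.58 and -3.24) at the bottom.

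Few other root hair genes had a feature annotated to them alone, which is what measured means throughout. Whether the others lie on features that the annotation does not list is not known. Of 35 listed genes of root hair growth 4 were measured, with 2 higher in roots under DMSO and 3 under estradiol, beside 19.3% and 19.5% of all features. GH9C1, an endoglucanase gene expressed in root hairs, read 7.07 to 7.48 in roots and 2.25 to 3.14 in shoots. It was higher in roots by 4.52 (SE 0.24) under DMSO and 4.69 (SE 0.24) under estradiol, with limma adjusted p-values of 1.14e-06 and 9.73e-07. Its shoot values lie around the lower quartile of the arrays with no detection call, so these too are differences of deposited values. FER, a receptor kinase gene needed for hair integrity and active in many tissues, was higher by 0.49 (SE 0.12) and 0.54 (SE 0.12). XTH26, a xyloglucan-modifying enzyme gene, had 0.41 (SE 0.31) under DMSO and was higher by 0.95 (SE 0.31) under estradiol. SCN1, which restricts where hairs start, had 0.17 (SE 0.15) and 0.25 (SE 0.15). The same genes passed with the labels exchanged, GH9C1 at 4.39 and 4.64, FER at 0.46 and 0.54, and XTH26 at 1.00 under estradiol alone. As titled 0 of the 4 passed by limma in either comparison, with GH9C1 at 2.96 and 3.21. The estradiol effect in roots did not pass for any of the 4, beside 0.0026% of all features, with XTH26 at 0.72 (SE 0.31) and a limma adjusted p of 0.999.

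Of 9 listed bHLH factors of root hair development only AT2G14760 and AT5G43175 were measured. They read 1.21 to 2.22 in roots and 1.39 to 2.62 in shoots, below the lower quartile of the arrays, and did not pass in any comparison. RHD6 and RSL4 were not analysed here. Of 10 epidermal patterning genes only TRY was measured, an R3 MYB repressor that acts in trichomes and, with CPC, in the root epidermis. TRY was lower in roots, by differences of -2.63 (SE 0.23) under DMSO and -2.57 (SE 0.23) under estradiol. TRY also passed with the labels exchanged, at -2.74 and -2.57, and as titled it had -1.81 and -1.64 and did not pass.

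Genes of like pattern were ranked by the root mean square difference of log2 values over the 10 arrays after centring each gene on its mean, among 16410 genes. For EXPA7 the nearest were AT1G13750 (0.125), TBL39 (0.127), AT2G40095 (0.147), AT1G63840 (0.154) and AT2G46140 (0.160). For EXPA18 they were AT2G40113 (0.295), AT2G04680 (0.317), AT1G05280 (0.382), AT4G35380 (0.430) and AT1G30750 (0.456). No gene was among the nearest 5 of both. The 2 expansins were at 1.45 from each other, which placed EXPA7 at rank 638 from EXPA18 and EXPA18 at rank 12697 from EXPA7. This measure counts a difference in amplitude as unlikeness. Over all 12 arrays, which needs no group labels, 4 of the nearest 5 of EXPA18 and 1 of those of EXPA7 were found again.

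Organ markers were set beside these values. Of 19 listed root markers 4 were measured (PYK10, NAI2, BGLU21 and BGLU22). Their summed signal was 13.92 to 14.00 in roots with DMSO and 13.92 to 13.95 with estradiol on the log2 scale. It was 12.08 to 12.30 in shoots with DMSO and 11.79 to 12.07 with estradiol. The shoot sum is mainly PYK10, which read 11.40 to 11.87 in shoots, where BGLU21 read 2.89 to 4.47 and BGLU22 2.20 to 3.67. For the 4 measured photosynthesis genes of 21 listed (RCA, SBPASE, LHCB4.1 and PRK), the sum in roots was 9.67 to 10.16 with DMSO. With estradiol it was 9.51 to 10.62 in roots, against 12.79 to 12.86 over all shoot arrays of the 10. In roots this sum rose with the replicate number under both treatments. On the array titled root DMSO replicate 3 the sums were 12.32 for root markers and 12.87 for photosynthesis genes, and on the array titled shoot estradiol replicate 3 they were 14.02 and 10.50. The part of organ composition in the expansin values was not tested.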

How the data were processed

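The deposited table holds log2 expression values by the authors, 1 per feature and array. Per the submitters' processing notes they used Affymetrix Expression Console 1.3, with settings and genome build not stated there. No label states the scale, which was read from the values (0.19 to 13.84), and array medians were 4.99 to 5.09. The number of arrays limits the precision.

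Features were named through the platform annotation and the RefSeq table of TAIR10.1. Of 38408 features 16722 had 1 gene, 759 several and 20927 were not listed. Of those with 1 gene 16574 matched RefSeq, for 16411 loci, and the brightest feature on average stood for each gene. Among all features 7132 repeat another feature's values on every array, though not those of EXPA7 and EXPA18. No coordinates are given because the table names no build, and no sequences were available here.

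A linear model of 4 group means was fitted with limma 3.58.1 in R 4.3.3 (lmFit, eBayes, two-sided) to 10 arrays. P-values were adjusted by Benjamini-Hochberg over all features, with a threshold of 0.05. The fit was checked on simulated data. Exact permutation tests used scipy 1.17.1. Members, gene lists, array sets and tests were chosen with earlier results of these data known. All measured list members could be named, with the 5 nearest genes by pattern. The limit for markers was the 4 brightest per organ, but only 4 per organ were measured, so none was left out.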

Additional observations from a re-analysis of the deposited data

Results flagged for a closer look

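Values on the 2 arrays outside the 10 stood out against the shoot controls. On the array titled shoot estradiol replicate 3, EXPA7 read 6.68 and EXPA18 read 7.90, above the highest shoot DMSO values of 4.46 and 3.91. On the array titled root DMSO replicate 3, EXPA7 read 4.95, also above those shoot DMSO values, while EXPA18 read 3.68 and lay among them. The groups of 2 or 3 arrays are too small to look for single arrays that stand apart within a group, and for neither gene did the estradiol effects in roots and shoots differ past the threshold.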

How the results depend on the processing

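Both organ differences of both genes kept their direction under all 21 alternatives and passed under all but 1, all 12 arrays as titled. That setting gave 1.70 for EXPA7 and 3.77 for EXPA18 under DMSO, and 1.64 and 3.09 under estradiol. Over the other 20 alternatives EXPA7 lay between 2.07 and 2.30 under DMSO and 2.22 and 2.57 under estradiol, and EXPA18 between 4.68 and 5.77 and between 3.99 and 4.98. Leaving out each of the 10 arrays in turn is among these; where 1 root DMSO or shoot estradiol array then remained, it was assumed to vary like the other groups. With the replicate number as a block the organ differences were 2.19 and 2.43 for EXPA7 and 5.42 and 4.36 for EXPA18, all past the threshold, and no call of either gene changed. Correlations of deviations from group means between groups were -0.02 to 0.12 for same-numbered arrays (median 0.05, 13 pairs). They were -0.12 to 0.11 for arrays of different number (median -0.03, 24 pairs). In a group of 2 arrays the deviations are mirror images, so some of these values repeat others with the opposite sign. The pairs are therefore not independent, and the 2 sets of correlations cannot be weighed against each other. The main fit does not pair the arrays. However, the summed photosynthesis signal in roots followed the number, at 9.67 and 9.51 in replicate 1 (DMSO, estradiol). It was 10.16 and 10.17 in replicate 2, and 10.62 in estradiol replicate 3. A link between same-numbered arrays is thus not excluded.

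The estradiol effects and their difference between organs did not pass for either gene under any alternative. Some small values changed sign. EXPA18 in roots had 1.46 with 12 arrays as titled, 0.0538 with the labels exchanged and 0.0416 with array weights on 12 arrays. EXPA7 in shoots lay between -0.0684 and 0.26 when each array was left out, below 0 without shoot estradiol replicate 1 or shoot DMSO replicate 3, and EXPA18 in shoots between 0.13 and 1.24. The difference of EXPA7 effects between organs was -0.0524 with 12 arrays, as titled and exchanged.

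Counts of called features moved more. With 12 arrays as titled they were 0 for the organ difference under DMSO, 1 under estradiol, 0 for roots and 0 for the difference of effects. With features of 1 gene only, fewer being tested, they were 7610, 7540, 0 and 0. The replicate block gave 0 for roots and 0 for the difference of effects, and array weights on 12 arrays gave 2 for the latter. Leaving out single arrays gave 11538 to 15045 and 12440 to 15271 for the organ differences, 0 to 1 in roots (0 without root DMSO replicate 1), 0 to 4 in shoots (4 without shoot DMSO replicate 1, 2 without shoot estradiol replicate 2) and 0 to 23 for the difference of effects (23 without root estradiol replicate 3). The alternative with another feature per gene could not be run, since each gene had 1. The table holds no signal over background, so whether EXPA18 or EXPA7 was detected in shoots is not known. Setting aside the 2 arrays was chosen with their profiles known.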
